A study of Mus musculus with 6 samples.

Results

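The genes described here are 6 patatin-like phospholipase genes (Pnpla2, Pnpla3, Pnpla5, Pnpla6, Pnpla7 and Pnpla8) and the genes of the 2 proteins that switch the Pnpla2 lipase off and on, G0s2 and Abhd5. They are 8 of 20107 genes in a table of read counts from mouse liver, and all 8 passed the filter on low counts that 14896 genes passed. The livers came from wild-type C57BL/6N male littermates aged 16 weeks. The HFHC group (3 mice, replicates 1, 2 and 3) received from 8 weeks of age, and for 8 weeks, a high-fat, high-calorie food with fructose and a drink rich in fructose, and the Chow group (3 mice, replicates 7, 8 and 9) stayed on chow. Each library was made from the total RNA of a single labelled liver after removal of ribosomal RNA. The 8 genes were chosen by family, with their HFHC against Chow fold changes in these same libraries already known. Their difference between the diets is therefore a description, given without a test.

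Triglyceride in liver cells is stored in lipid droplets and is broken down fatty acid by fatty acid. Pnpla2 encodes adipose triglyceride lipase (ATGL), which takes off the first fatty acid. Abhd5 (also called CGI-58) encodes its co-activator and G0s2 encodes a small protein that binds the lipase and inhibits it. Pnpla3 (adiponutrin) and Pnpla5 are the closest relatives of Pnpla2, sit on lipid droplets, and Pnpla3 is known in mouse liver as a gene switched on by feeding through the lipogenic factors SREBP-1c and ChREBP. Pnpla6 and Pnpla7 encode lysophospholipases of the endoplasmic reticulum, known from the neuropathy target esterase family, and Pnpla8 encodes a calcium-independent phospholipase A2 of mitochondria and peroxisomes.

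In HFHC livers Pnpla3, Pnpla5, Pnpla7 and G0s2 stood higher than in Chow livers, with every HFHC library above every Chow library. Pnpla2, Abhd5, Pnpla6 and Pnpla8 stood at like mean levels in both diets, and their libraries overlapped. The mean level of the lipase gene Pnpla2 thus differed by less than its spread between mice, while the gene of its inhibitor stood 4.43-fold higher in HFHC.

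The 4 genes that stood higher share no single promoter feature among the short sequences searched. Their promoter windows are printed because they are the sequences nearest the start of each of these genes. They come from RefSeq, run 5′ to 3′ on the strand of the gene from 250 bases before its start site to 50 bases after it, and are on build GRCm38.p6, the same assembly as the mm10 build of the counts. They lie at chr15:84167566-84167865 (Pnpla3, plus strand), chr15:84123126-84123425 (Pnpla5, minus strand), chr2:24975783-24976082 (Pnpla7, plus strand) and chr1:193273139-193273438 (G0s2, minus strand). Capitals mark every match to a searched motif on either strand, which in these windows are the E-box, spelled CACGTG, the NF-Y motif, spelled CCAAT, and the FoxO motif, spelled GTAAACA, with a match on the opposite strand appearing as the reverse complement.

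Pnpla3: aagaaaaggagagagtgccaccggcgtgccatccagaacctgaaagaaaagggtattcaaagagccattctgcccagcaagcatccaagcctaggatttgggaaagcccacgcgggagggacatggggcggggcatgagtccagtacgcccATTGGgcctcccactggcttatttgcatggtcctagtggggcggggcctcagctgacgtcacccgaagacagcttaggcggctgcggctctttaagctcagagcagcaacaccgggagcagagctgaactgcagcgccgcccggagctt

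Pnpla5: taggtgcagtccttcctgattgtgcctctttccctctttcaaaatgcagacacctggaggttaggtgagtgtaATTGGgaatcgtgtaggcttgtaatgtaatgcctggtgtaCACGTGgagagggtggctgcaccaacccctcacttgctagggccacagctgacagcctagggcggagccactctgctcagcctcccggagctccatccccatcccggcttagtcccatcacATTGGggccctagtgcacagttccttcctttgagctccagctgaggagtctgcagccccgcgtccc

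Pnpla7: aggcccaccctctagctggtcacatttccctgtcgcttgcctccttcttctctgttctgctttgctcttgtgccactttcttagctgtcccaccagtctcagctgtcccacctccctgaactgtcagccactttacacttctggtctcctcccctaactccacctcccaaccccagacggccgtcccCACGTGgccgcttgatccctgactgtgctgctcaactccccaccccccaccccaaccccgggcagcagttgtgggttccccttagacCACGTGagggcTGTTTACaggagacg

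G0s2: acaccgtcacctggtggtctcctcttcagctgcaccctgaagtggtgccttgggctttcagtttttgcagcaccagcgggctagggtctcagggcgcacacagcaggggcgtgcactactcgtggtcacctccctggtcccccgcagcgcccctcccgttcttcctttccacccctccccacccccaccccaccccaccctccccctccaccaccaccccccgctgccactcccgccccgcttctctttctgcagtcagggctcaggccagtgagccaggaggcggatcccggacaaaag

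The Pnpla7 window held the E-box at 2 places, starting 63 bases before the start site and at base 25 after it. Factors such as the clock proteins bind the E-box, and it is only a part of the carbohydrate response element bound by ChREBP. That full element was not searched for. Of 32851 RefSeq windows of this length, 7.15% held at least 1 E-box and 0.594% held 2 or more. The Pnpla5 window held a single E-box at -137 and 2 NF-Y motifs at -177 and -16, and the Pnpla3 window held a single NF-Y motif at -99. NF-Y motifs occurred in 37.4% of all windows. Pnpla7 also held a FoxO motif from base 36, a motif found in 3.65% of windows. The G0s2 window held none of the motifs searched, which also included the sterol response element TCACNCCAC (1.24% of windows), the nuclear receptor motif AGGTCA (16.3%) and the TATA box TATAAA (13.6%). The searched motifs do not overlap each other in the 4 windows. A match in these letters is a description of the window and shows no binding.

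Pnpla2 is a gene of chromosome 7 (mm10, 141455198 to 141460743, plus strand). Levels are given in CPM, the usual depth-scaled count, here the deposited estimated counts over library sizes scaled with TMM factors. Pnpla2 had 40.2, 41.6 and 35.3 CPM in HFHC replicates 1, 2 and 3, against 40.2, 37.8 and 42.8 CPM in Chow replicates 7, 8 and 9. The diets overlapped, with the lowest value in an HFHC liver and the highest in a Chow liver. The log2 fold change of HFHC over Chow from the fit across all genes was -0.04 with a standard error (SE) of 0.09, and it ran from -0.09 to 0.02 when the libraries were dropped in turn. In bulk liver, a level cannot tell fewer cells of a type from less RNA per cell.

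G0s2, the inhibitor gene, lies on chromosome 1 at 193272161 to 193273217 (minus strand). It had 81.9, 99.4 and 54.5 CPM in HFHC replicates 1, 2 and 3, against 19.9, 20.8 and 12.5 CPM in Chow replicates 7, 8 and 9. Every HFHC library lay above every Chow library, with HFHC replicate 2 the highest and Chow replicate 9 the lowest. The means were 78.6 ± 22.6 CPM in HFHC and 17.8 ± 4.56 CPM in Chow (SD, n = 3 each). The log2 fold change was 2.15 ± 0.24 (SE), a 4.43-fold difference, and ran from 1.94 to 2.35 with a library left out.

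Abhd5, the co-activator gene, lies on chromosome 9 at 122351608 to 122381524 (plus strand). It had 32.6, 29.8 and 33.2 CPM in HFHC replicates 1, 2 and 3, against 25.2, 41.8 and 26.3 CPM in Chow replicates 7, 8 and 9. Chow replicate 8 stood above all 5 other libraries, and Chow replicates 7 and 9 stood below all 3 HFHC libraries. The log2 fold change was 0.04 ± 0.17 (SE) with all libraries and 0.32 ± 0.09 without Chow replicate 8. A noncoding gene on the opposite strand, A730085K08Rik, shares 16.0% of the exonic bases of Abhd5 and had 1 count in all of HFHC and 6 in all of Chow. Whether the counting used strand is not given in the sources used here.

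**Figure D1:**
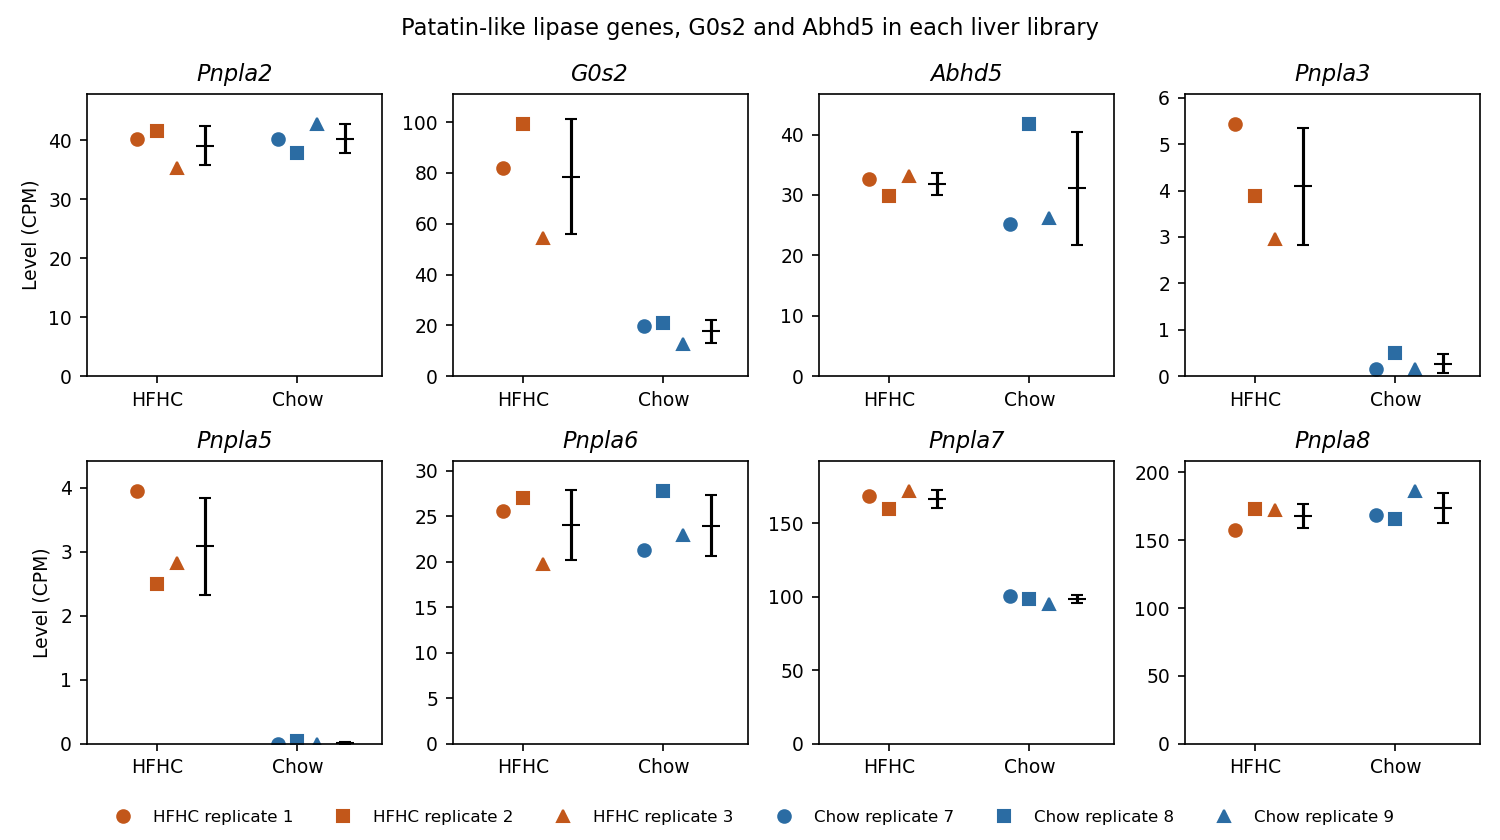
Level in CPM of each of the 8 genes (1 panel per gene, vertical axes from 0) in 3 HFHC and 3 Chow livers. Points are libraries and the black bars are the mean ± SD. Pnpla3, Pnpla5, Pnpla7 and G0s2 are higher in every HFHC library than in any Chow library, and Chow replicate 8 stands apart for Abhd5 with 41.8 CPM.

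Levels of different genes were compared per kilobase of exon, counting every base that any annotated transcript of the gene uses. On that scale G0s2 transcripts exceeded Pnpla2 transcripts 7.06-, 8.28- and 5.35-fold in HFHC replicates 1, 2 and 3, against 1.72-, 1.91- and 1.02-fold in Chow replicates 7, 8 and 9. Per kilobase of exon the inhibitor transcript thus stood above the lipase transcript in every liver, by a mean factor of 6.90 ± 1.47 in HFHC and 1.55 ± 0.47 in Chow (SD, n = 3 each), and the diets did not overlap. The ratio of Abhd5 to Pnpla2, co-activator to lipase, averaged 0.417 ± 0.057 in HFHC and 0.397 ± 0.142 in Chow, and its libraries overlapped. The ratio of G0s2 to Abhd5 was 17.2, 22.8 and 11.2 in HFHC replicates 1, 2 and 3, against 5.41, 3.41 and 3.26 in Chow replicates 7, 8 and 9. With the longest transcript as the length, the libraries of G0s2 and Pnpla2 overlapped within Chow and stayed apart within HFHC. With that length G0s2 lay below Pnpla2 in Chow replicate 9 (14.4 against 16.3 CPM per kilobase). That length also raises the HFHC level of Abhd5 to 10.1 CPM per kilobase, against 5.35 with all exonic bases, and so lowers the ratio of G0s2 to Abhd5 and raises that of Abhd5 to Pnpla2 by the same factors in both diets. These are ratios of RNA and not of protein.

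**Figure D2:**
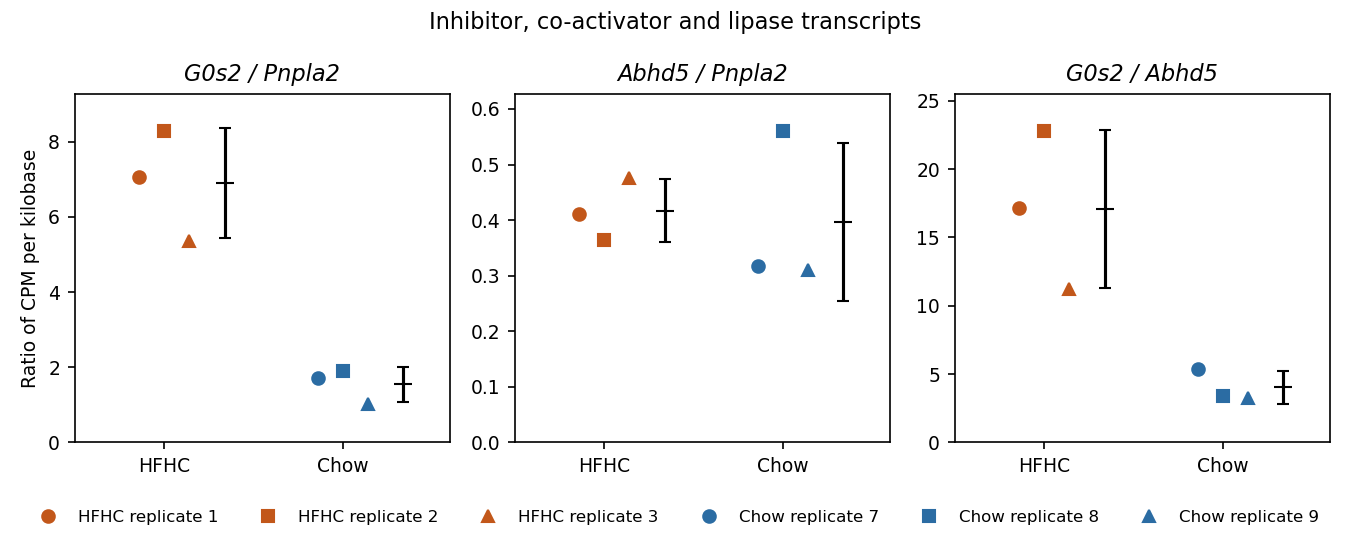
Ratios of CPM per kilobase of exon between the inhibitor G0s2, the co-activator Abhd5 and the lipase Pnpla2 in each liver (vertical axes from 0, black bars the mean ± SD). G0s2 per Pnpla2 is 5.35 to 8.28 in HFHC and 1.02 to 1.91 in Chow, while Abhd5 per Pnpla2 overlaps between the diets.

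Pnpla3 and Pnpla5 are next to each other on chromosome 15. Pnpla3 lies at 84167837 to 84187236 on the plus strand and Pnpla5 at 84112356 to 84123175 on the minus strand, so that they are transcribed away from each other, with 44661 bases and no tested gene between them. Pnpla3 had 171, 121 and 88 counts in HFHC replicates 1, 2 and 3, against 4, 14 and 4 counts in Chow replicates 7, 8 and 9. As levels these were 5.44, 3.88 and 2.95 CPM in HFHC, against 0.152, 0.508 and 0.151 CPM in Chow. All HFHC libraries lay above all Chow libraries, and Chow replicate 8 was the highest of its diet. The log2 fold change was 3.89 ± 0.41 (SE), and it was 4.72 without Chow replicate 8. Over the summed counts the ratio of HFHC to Chow was 15.02 with an exact 95% counting interval of 9.78 to 24.3, which covers counting error and not the spread between mice. The noncoding gene Gm49513 shares 6.78% of the exonic bases of Pnpla3 on the same strand and had 3 counts in all of HFHC and 1 in all of Chow.

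Pnpla5 had 124, 78 and 84 counts in HFHC replicates 1, 2 and 3, against 0, 1 and 0 counts in Chow replicates 7, 8 and 9. The HFHC levels were 3.94, 2.50 and 2.82 CPM. With 1 count over all Chow libraries, the Chow level was at the limit of detection, since 3 counts in a Chow library stood for 0.109 to 0.114 CPM. The summed counts of 286 in HFHC and 1 in Chow give a ratio of 248.8 with an exact 95% counting interval of 44.3 to 9859, so the size of the difference is poorly fixed above the lower bound. Both neighbours were low genes even in HFHC: Pnpla3 averaged 2.64 ± 0.81 and Pnpla5 1.42 ± 0.35 CPM per kilobase, against 12.9 ± 1.10 for Pnpla2 in the same livers. Pnpla3 and Pnpla5 had their highest HFHC value in the same animal, replicate 1.

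**Figure D3:**
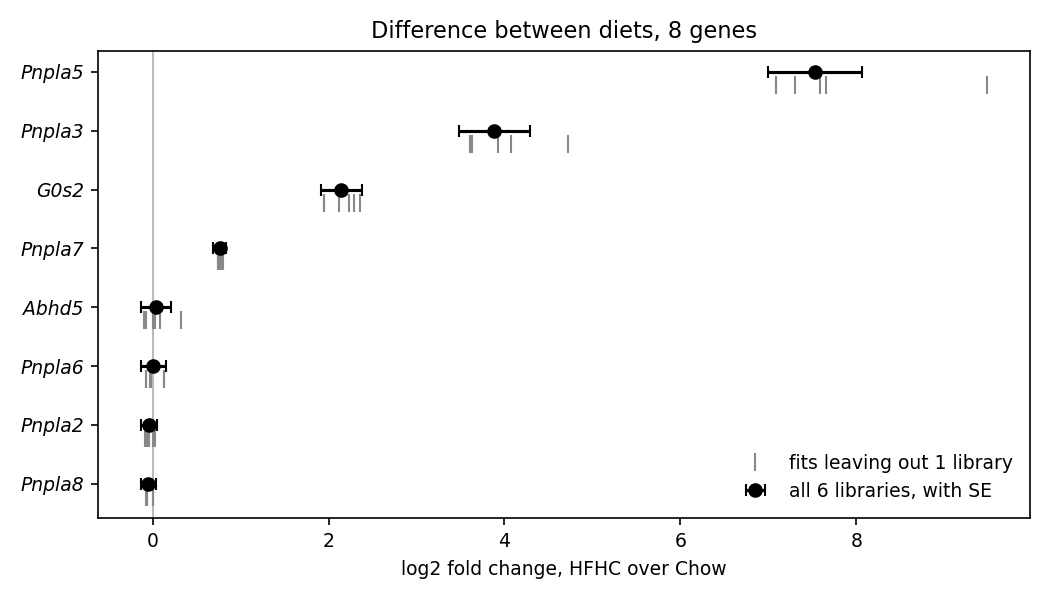
Log2 fold change of HFHC over Chow for each gene (horizontal axis), with bars for the SE of the fit with all 6 libraries and grey ticks for 6 repeats of the fit, a different library dropped each time. The ticks of Abhd5, Pnpla6, Pnpla2 and Pnpla8 fall on both sides of 0, and those of Pnpla5, with 1 Chow count, run from 7.08 to 9.49 and depend on the prior count of the fit.

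The genes beside this pair were looked at next. Samm50, which encodes a part of the mitochondrial sorting and assembly machinery and starts 5005 bases past Pnpla3, rose in HFHC livers to 90.2 ± 3.78 CPM, against 63.6 ± 4.46 CPM in Chow livers (SD, n = 3 each, log2 fold change 0.50 ± 0.08 SE, edgeR adjusted p = 0.0084). Parvb, the next gene, averaged 2.98 ± 0.145 CPM in HFHC livers and 2.78 ± 0.48 CPM in Chow livers and did not pass (adjusted p = 0.790). On the other side, Ttll12 (517199 bases away, adjusted p = 0.557) and Tspo (538153 bases away, adjusted p = 0.346) did not pass either.

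Beside G0s2, Lamb3, a laminin gene that spans G0s2 on the opposite strand without sharing an exonic base, rose by 0.83 ± 0.16 on the log2 scale to 5.12 ± 0.80 CPM in HFHC, against 2.88 ± 0.24 CPM in Chow (adjusted p = 0.0177). Its call was lost without HFHC replicate 2, Chow replicate 7 or Chow replicate 9 (0.0556 to 0.0759). Hsd11b1, the abundant liver gene of glucocorticoid activation on the same side, averaged 362 ± 35.1 CPM in HFHC livers and 398 ± 38.2 CPM in Chow livers and did not pass (adjusted p = 0.489). On the far side the predicted gene Gm37691 rose by 0.71 ± 0.18 (adjusted p = 0.0453), but fell short of the threshold whichever of the 6 libraries was dropped (0.0519 to 0.153). The semaphorin receptor gene Plxna2, 1345001 bases away, fell by 0.56 ± 0.11 on the log2 scale (log2 fold change -0.56, adjusted p = 0.0177), a call lost without HFHC replicate 2 or 3 or Chow replicate 9 (0.0534 to 0.0634). Of 28 tested neighbours of the 8 genes, the nearest on each side, 3 rose and 1 fell, all of them beside Pnpla3 or G0s2, where 3.38% of all tested genes rose and 3.3% fell.

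Pnpla7, on chromosome 2 at 24976033 to 25054057 (plus strand), had 168, 160 and 172 CPM in HFHC replicates 1, 2 and 3, against 101, 98.8 and 95.4 CPM in Chow replicates 7, 8 and 9. The diets lay far apart relative to the spread among mice, which was the smallest of the 8 genes in each diet. The SD of log2 CPM was 0.054 in HFHC and 0.040 in Chow, against medians over all tested genes of 0.146 in HFHC and 0.138 in Chow. The log2 fold change was 0.76 ± 0.07 (SE), a 1.69-fold difference, and ran from 0.74 to 0.79 with a library left out. Its deposited counts, like those of Pnpla8, were not whole in 5 of the 6 libraries.

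Pnpla6, the sister gene of Pnpla7, lies on chromosome 8 at 3515384 to 3544267 (plus strand). It had 25.6, 26.96 and 19.7 CPM in HFHC replicates 1, 2 and 3, against 21.3, 27.8 and 22.9 CPM in Chow replicates 7, 8 and 9. The libraries of the diets were interleaved, and the log2 fold change was 0.01 ± 0.14 (SE). Per kilobase, Pnpla7 exceeded Pnpla6 9.15 ± 1.88 times in HFHC and 5.37 ± 0.76 times in Chow, with every HFHC library above every Chow library.

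Pnpla8, on chromosome 12 at 44221370 to 44322532 (plus strand), had 158, 173 and 173 CPM in HFHC replicates 1, 2 and 3, against 169, 166 and 186 CPM in Chow replicates 7, 8 and 9. The diets overlapped and the log2 fold change was -0.05 ± 0.08 (SE). Its SD of log2 CPM was 0.077 in HFHC and 0.089 in Chow, so the mice of each diet were alike.

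By the all-gene fit, 4 of the 8 genes had an adjusted p under 0.05 as higher and none as lower, by unadjusted p, DESeq2 and limma-voom as well. Over all 14896 tested genes these shares were 3.38% higher and 3.3% lower. Every HFHC library lay above every Chow library in 4 of the 8 genes and below in none, while this held above for 13.5% and below for 14.3% of all tested genes. The genes were chosen with this contrast known, and nothing is read from these counts.

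In HFHC the order of the levels per kilobase was G0s2 (90.2 ± 26.0), Pnpla7 (22.2 ± 0.83), Pnpla2 (12.9 ± 1.10), Pnpla8 (11.8 ± 0.62), Abhd5 (5.35 ± 0.30), Pnpla3 (2.64 ± 0.81), Pnpla6 (2.48 ± 0.40) and Pnpla5 (1.42 ± 0.35). Within HFHC, Pnpla2 and Pnpla8 overlapped over the libraries, as did Pnpla3 and Pnpla6, and the other neighbours in the order did not. In Chow the order was G0s2 (20.4 ± 5.23), Pnpla2 (13.3 ± 0.82), Pnpla7 (13.1 ± 0.36), Pnpla8 (12.3 ± 0.77), Abhd5 (5.22 ± 1.56), Pnpla6 (2.47 ± 0.35), Pnpla3 (0.174 ± 0.133) and Pnpla5 (0.00557 ± 0.00964, from 1 count). Pnpla2, Pnpla7 and Pnpla8 overlapped each other in Chow. Pnpla3 thus overlapped Pnpla6 in HFHC and stood below it in every Chow library. With the longest transcript as the length, Pnpla7 moved above G0s2 in Chow (21.3 and 20.4 CPM per kilobase), with overlapping libraries. In HFHC that length put Pnpla6 above Pnpla3 (4.19 and 3.11 CPM per kilobase), still overlapping, and set Pnpla2 apart from Pnpla8.

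Summed over the 6 Pnpla genes, the level was 54.9, 53.7 and 52.0 CPM per kilobase in HFHC replicates 1, 2 and 3, against 40.9, 40.6 and 42.5 in Chow replicates 7, 8 and 9. Pnpla7 made up 41.5 ± 2.27% of that sum in HFHC and 31.8 ± 1.56% in Chow. Pnpla2 made up 24.1 ± 1.59% in HFHC and 32.2 ± 1.28% in Chow. Pnpla3 and Pnpla5 made up 4.91 ± 1.39% and 2.65 ± 0.60% in HFHC, against 0.426 ± 0.331% and 0.014 ± 0.024% in Chow. Of the Pnpla genes with like CPM in both diets, Pnpla2, Pnpla6 and Pnpla8 each held a smaller mean share of the larger HFHC sum.

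**Figure D4:**
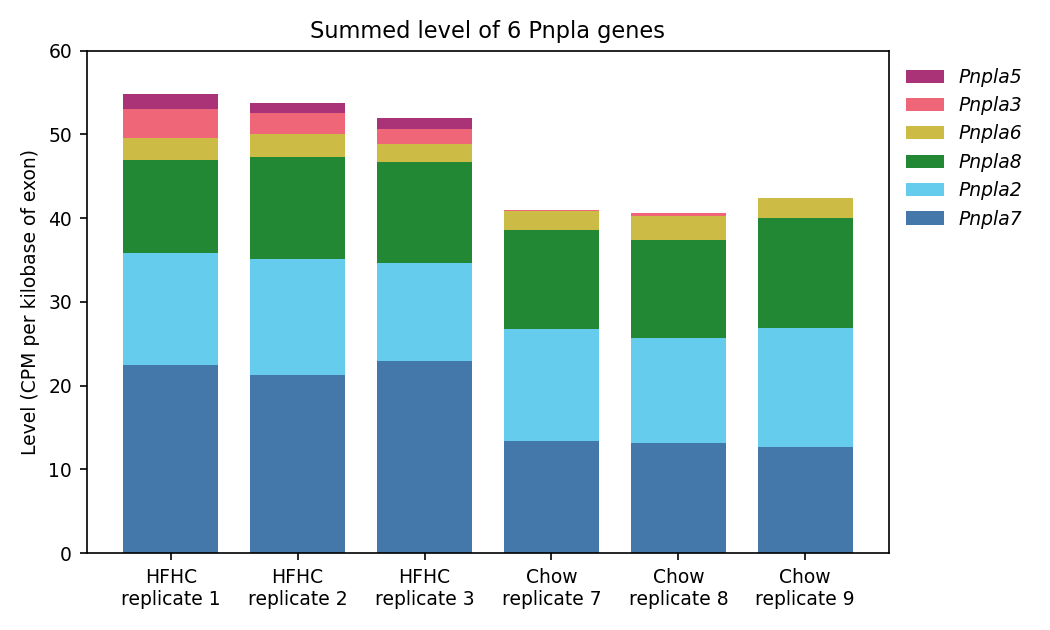
Level of 6 Pnpla genes in each liver, stacked, in CPM per kilobase of exon (vertical axis from 0). The stack reaches 52.0 to 54.9 in HFHC and 40.6 to 42.5 in Chow, and Pnpla7, Pnpla3 and Pnpla5 are the segments that are thicker in HFHC.

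Within HFHC the highest library exceeded the lowest 1.84-fold for Pnpla3 and 1.82-fold for G0s2. Within Chow it did so 3.37-fold for Pnpla3 and 1.66-fold for both G0s2 and Abhd5. HFHC replicate 3 was the lowest of its diet for Pnpla2, Pnpla3, Pnpla6 and G0s2, and HFHC replicate 2 was the highest for Pnpla2, Pnpla6, Pnpla8 and G0s2. In Chow, replicate 8 was the highest for 5 of the 8 genes (Pnpla3, Pnpla6, G0s2, Abhd5 and, on 1 count, Pnpla5). It was the lowest for Pnpla2 and Pnpla8. The share of all tested genes that were highest in this library was not counted. This library also stood apart on the second principal component of all tested genes (16.6% of the variance), at 30.4 against -11.2 and -11.9 for Chow replicates 7 and 9. Whether what sets it apart bears on these genes was not tested.

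Genes with the most similar pattern over the 6 libraries were found by the root mean square distance between log2 CPM profiles, each centred on its own mean, among 12344 tested genes with established names. The distance is in log2 units, and genes with a large difference between diets necessarily resemble each other in it. For Pnpla3 the nearest were Stap1 (0.38), Grin3b (0.52), Dntt (0.54), Chrm3 (0.58) and Fgf21 (0.62), and Pnpla5 came in place 17 (0.83). Stap1, which encodes a signalling adaptor of lymphoid cells, averaged 6.32 ± 1.06 CPM in HFHC livers and 0.493 ± 0.267 CPM in Chow livers. For Pnpla5 the nearest were the apolipoprotein gene Apoa4 (0.63), the hormone gene Fgf21 (0.66), Pnpla3 (0.83), Stap1 (0.92) and Slc35f2 (1.08). With 1 count in all of Chow, the Chow part of the Pnpla5 profile was set largely by the prior count. Within HFHC, Apoa4 was highest in replicate 2 (2450 CPM), where Pnpla5 was lowest (2.50 CPM). Grin3b was also near the floor, with 5 counts in all of Chow.

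For G0s2 the nearest included the growth factor gene Nrg1 (0.18), the phospholipid transfer protein gene Pltp (0.23), the stress-response transcription factor gene Atf3 (0.24) and the sphingomyelinase gene Smpd3 (0.29). Pltp, the most abundant of these, averaged 80.3 ± 17.1 CPM in HFHC livers and 18.9 ± 3.72 CPM in Chow livers, close to the levels of G0s2. For Pnpla2 the nearest were Aldh4a1 (0.03), Washc2 (0.03), Nbr1 (0.03), Wbp1l (0.03) and Sqstm1 (0.03), among many genes with little difference between diets. Nothing about shared control follows from these distances over 6 libraries.

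The other genes that handle stored triglyceride were counted from lists of known members. Calls are by the adjusted p of edgeR's quasi-likelihood test over all genes. All of the gene lists here and below were chosen with earlier results of these data known. Their counts beside the all-gene shares are therefore a description. The list of partners of the Pnpla2 lipase holds genes of the droplet coat, droplet growth and later lipolysis steps. It also holds further genes such as Vcp, Arf1, Pex2, Hsd17b13, Fabp1 and Fabp4. In it 8 of 23 tested genes rose and none fell, or 12 and 0 by unadjusted p. DESeq2 called 10 and 0, and limma-voom called 8 and 0. The background is the 3.38% of all genes that rose. Values with ± given for the genes of these lists without a unit are log2 fold changes of HFHC over Chow with their SE. The median log2 fold change of the list was 0.25, against 0.00 over all tested genes. The count of genes that rose was 4 to 7 with a library left out, with 5 without HFHC replicate 2 or 3 and 4 without Chow replicate 7 or 9.

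Mgll, the monoglyceride lipase that takes off the last fatty acid, rose to 256 ± 27.2 CPM in HFHC, against 123 ± 30.2 CPM in Chow (1.06 ± 0.16, adjusted p = 0.00618). Lipe, the hormone-sensitive lipase that acts between Pnpla2 and Mgll, averaged 11.4 ± 1.59 CPM in HFHC livers and 10.6 ± 0.88 CPM in Chow livers (0.11 ± 0.13) and did not pass (adjusted p = 0.661). Plin5, a droplet coat protein that binds both Pnpla2 and Abhd5, rose by 0.54 ± 0.09 to 32.6 ± 1.61 CPM in HFHC, against 22.4 ± 2.03 CPM in Chow (adjusted p = 0.00999, and 0.0525 without Chow replicate 7). Hilpda, a further peptide inhibitor of the lipase, rose by 0.85 ± 0.20 to 2.28 ± 0.24 CPM in HFHC, against 1.27 ± 0.20 CPM in Chow (adjusted p = 0.0377), but missed the threshold whichever of the 6 libraries was dropped (0.0603 to 0.126). Both inhibitor genes of the lipase, G0s2 and Hilpda, thus had positive log2 fold changes, with Hilpda far less abundant.

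The droplet proteins Plin2 (1.09 ± 0.13, adjusted p = 0.00216) and Cidec (3.39 ± 0.68, adjusted p = 0.0204) rose, as did Fabp1, the main fatty acid carrier of liver cells (0.77 ± 0.10, adjusted p = 0.00286). Cidec was lost as a call without Chow replicate 7 (0.0807) or 9 (0.0707), and its size on the log2 scale was 2.59 without HFHC replicate 2 and 4.602 without Chow replicate 8. The remaining called genes of the list were Fitm1 (1.09 ± 0.21) and Fitm2 (0.65 ± 0.15), which act in droplet formation and were named after their values were seen. Counts of Plin2 were not whole in all 6 libraries, which leaves its level less certain.

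Among 25 other neutral lipid and ester hydrolases, 2 rose and 4 fell (3 and 5 by DESeq2, 1 and 4 by limma-voom), against a background of 3.38% higher and 3.3% lower, and the median log2 fold change was -0.06. The carboxylesterase gene Ces2a fell to 144 ± 9.20 CPM in HFHC, against 443 ± 49.9 CPM in Chow (-1.62 ± 0.10, adjusted p = 7.99e-05). Lipoprotein lipase, Lpl, fell to 20.6 ± 0.22 CPM in HFHC, against 35.2 ± 4.996 CPM in Chow (-0.77 ± 0.11, adjusted p = 0.00402), and Ces1b fell too (-1.17 ± 0.17, adjusted p = 0.00584). Ces1f fell by a small amount (-0.34 ± 0.09, adjusted p = 0.0486), which missed the threshold after dropping any library except Chow replicate 8 (0.0747 to 0.165) and with no count filter (0.0583).

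Ces1d, the hydrolase that supplies triglyceride for lipoprotein secretion in mouse liver, averaged 384 ± 33.7 CPM in HFHC livers and 493 ± 39.4 CPM in Chow livers (-0.36 ± 0.10) and did not pass (adjusted p = 0.0570), though it did by DESeq2 (0.0126). Ces2e (0.51 ± 0.09, adjusted p = 0.0112, and 0.0580 without Chow replicate 7) and the endothelial lipase gene Lipg (1.29 ± 0.33, adjusted p = 0.0484) rose. The call of Lipg was lost by DESeq2 (0.0625), by limma-voom (0.0685) and without HFHC replicate 2 or 3 or Chow replicate 7 or 9 (0.0651 to 0.156). Carboxylesterases form a family of similar genes, and counts of Ces2a, Ces1b and Ces2e were not whole in all 6 libraries, so their levels are given as uncertain.

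The list of SREBP-1c, ChREBP and LXR targets, to which Pnpla3 is known to belong, also holds genes of the regulators themselves, such as Srebf1 and Mlxipl. In it 13 of 35 genes rose and none fell (18 and 0 by unadjusted p, 13 and 0 by DESeq2, 14 and 0 by limma-voom). Over all tested genes the shares were 3.38% higher and 3.3% lower, and the median log2 fold change of the list was 0.49. The 4 with the smallest p were Fads2 (1.71 ± 0.14), Elovl5 (1.94 ± 0.17), which desaturate and elongate polyunsaturated fatty acids, the fructokinase Khk (0.87 ± 0.10) and the pyruvate kinase Pklr (1.58 ± 0.23), with adjusted p values of 0.00022, 0.000383, 0.00191 and 0.00554. The transcription factor genes themselves did not pass: Srebf1 had a log2 fold change of 0.14 ± 0.11 (adjusted p = 0.510) and Mlxipl, which encodes ChREBP, of 0.11 ± 0.14 (adjusted p = 0.710). None of these called genes had a fold as large as that of Pnpla3 with its log2 fold change of 3.89.

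PPAR and FoxO1 are known regulators of G0s2 and Pnpla2. The list of their targets pools both kinds and also holds genes of the factors themselves, such as Ppara, Pparg and Foxo1. In it 11 of 29 genes rose and none fell (14 and 2 by unadjusted p, 11 and 0 by DESeq2 and by limma-voom). The all-gene shares were 3.38% higher and 3.3% lower, and the median log2 fold change of the list was 0.26. The hormone gene Fgf21 (5.005 ± 0.54, adjusted p = 0.00124), Cpt1a of mitochondrial fatty acid entry (0.77 ± 0.09, adjusted p = 0.00200) and the pantetheinase gene Vnn1 (1.82 ± 0.30, adjusted p = 0.00915) were among the genes that rose. The FoxO1 targets Igfbp1 (-1.31 ± 0.65), Pck1 (-0.82 ± 0.23), Irs2 (-0.41 ± 0.39) and G6pc (-0.32 ± 0.30) had negative log2 fold changes and were not called. They were named after their values were seen, and 18 of the 29 genes had positive log2 fold changes. In this list 3 genes were called higher without Chow replicate 7, 6 without Chow replicate 9 and 7 without HFHC replicate 1 or 2.

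Among 25 genes of lysophospholipid breakdown and reacylation, the field of Pnpla6 and Pnpla7, 2 rose and 1 fell (4 and 2 by unadjusted p, 2 and 1 by DESeq2 and by limma-voom), and the median was 0.05. These are 8.0% higher and 4.0% lower, against all-gene shares of 3.38% higher and 3.3% lower, and 0 genes of the list were called higher without Chow replicate 7 and 1 without HFHC replicate 1 or 2 or Chow replicate 9. The acyltransferase genes Agpat2 (0.48 ± 0.09, adjusted p = 0.0144) and Agpat3 (0.33 ± 0.08, adjusted p = 0.0359) rose and the phospholipase gene Pla2g12a fell (-0.69 ± 0.12, adjusted p = 0.0107). The call of Agpat2 was lost without Chow replicate 7 (0.0736), and that of Agpat3 after dropping any library except HFHC replicate 3 (0.0670 to 0.118). Pla2g6, counted by some as a further patatin-like gene, averaged 28.7 ± 7.44 CPM in HFHC livers and 24.3 ± 1.82 CPM in Chow livers and did not pass (adjusted p = 0.439).

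**Figure D5:**
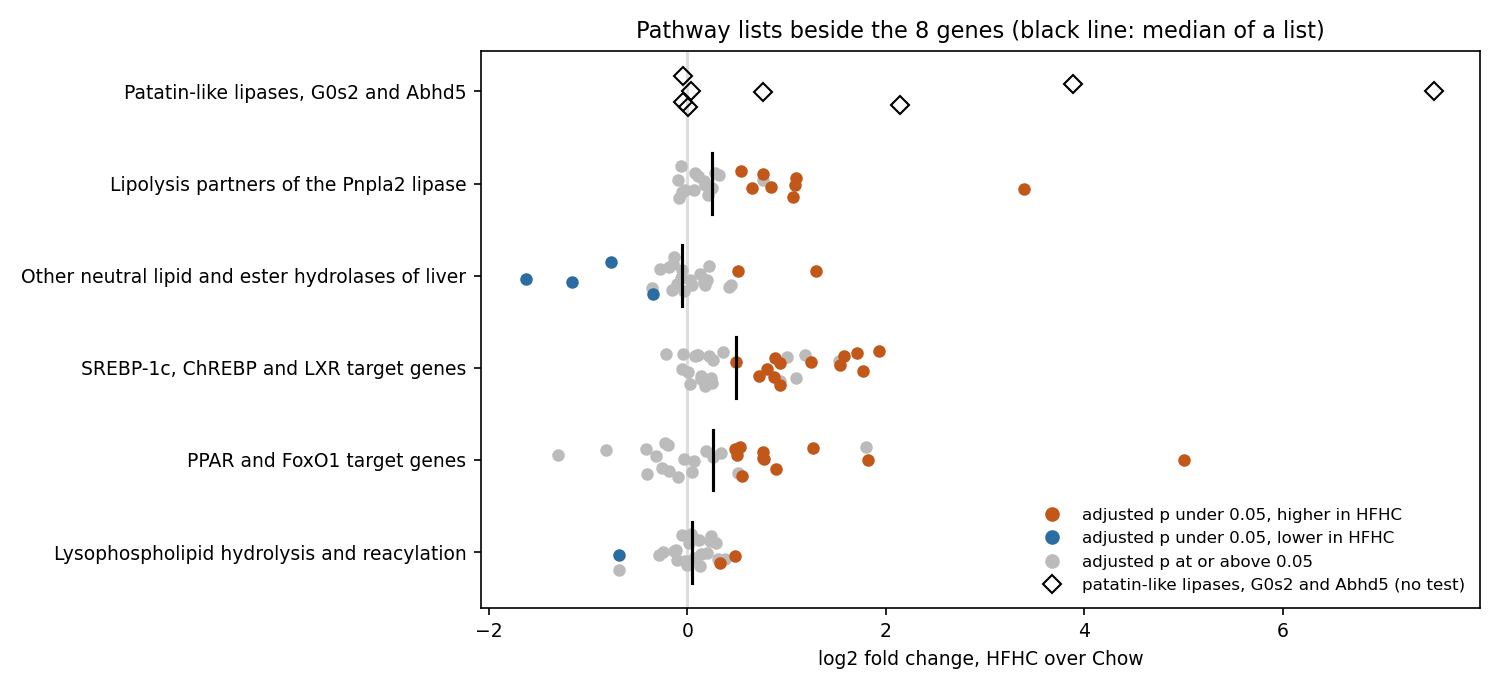
Log2 fold change of HFHC over Chow (horizontal axis) for the 8 genes (open diamonds, no test) above the tested genes of 5 pathway lists (points, coloured by edgeR's adjusted p), with the median of each list as a black line. The median is 0.49 for the SREBP-1c, ChREBP and LXR targets and 0.05 for the lysophospholipid list, and Pnpla5, Pnpla3 and G0s2 lie to the right of most points.

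The libraries held 30096409 to 30871297 counts in HFHC and 26767416 to 27339613 in Chow, and 1 count stood for 0.0318 to 0.0335 CPM in HFHC and 0.0363 to 0.0379 CPM in Chow. The liver label was met by hepatocyte markers, whose 10 genes summed to 88210 to 92140 CPM in HFHC and 81600 to 102100 CPM in Chow, with 2 of the 10 (Cps1 and Tat) lower in HFHC. G0s2, Pnpla2 and Abhd5 are abundant in fat tissue. Of 12 adipocyte markers 7 had a row, and only 3 of them (Cfd, Lipe and Fabp4) passed the count filter and were tested. Adipoq, Lep, Retn, Plin1 and Adig had no row. The 7 with a row summed to 18.3 to 25.9 CPM in HFHC and 17.8 to 21.7 CPM in Chow, most of it from Lipe and Fabp4. The adipocyte serine protease gene Cfd was the 1 marker called higher (0.382, 1.70 and 0.402 CPM in HFHC, against 0, 0 and 0.038 CPM in Chow, adjusted p = 0.0226), and the part of fat cells in the result for G0s2 was not tested. Lipe (0.11 ± 0.13) and Fabp4 (-0.10 ± 0.16) did not pass (edgeR adjusted p = 0.661 and 0.771). HFHC replicate 2 had the highest value of Cfd, Lipe, Fabp4 and G0s2. In HFHC replicates 1 and 3 G0s2 was 81.9 and 54.5 CPM, against 99.4 CPM in replicate 2. No marker of stellate, Kupffer, sinusoidal endothelial, bile duct, neutrophil or lymphoid cells was called by edgeR, with 2 stellate and 4 Kupffer genes higher at an unadjusted p under 0.05 and none in the others, and 1 stellate gene called by DESeq2. Kupffer markers summed to 343 to 420 CPM in HFHC and 292 to 341 CPM in Chow. Among the erythroid genes Hba-a1, which encodes a haemoglobin chain, was called higher, with a log2 fold change of 0.37 (adjusted p = 0.0278).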

How the data were processed

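Per the labels, RNA was extracted from liver with miRNeasy kits and stranded libraries (TruSeq, ribosomal RNA removed by Ribo-Zero) were sequenced on a NextSeq500. Per the submitters' processing notes, STAR 2.7.3a, Partek 9 and the mm10 build were used. How reads were counted, with which annotation, is not given in the sources used here. Per gene, the authors deposited estimated counts (expected counts), not normalized, of which 22.4% are not whole (tolerance 0.01).

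Counts were rounded and filtered with filterByExpr (minimum count 10), leaving 14896 genes. HFHC was compared with Chow by edgeR 4.0.16 (R 4.3.3) with TMM factors and the quasi-likelihood F test, p values adjusted by Benjamini-Hochberg across the whole filtered table, and called at 0.05. The SE is the size of the log2 fold change divided by the square root of F. Log2 CPM used a prior count of 2. No covariate was used, since no batch or pairing is labelled. The mice are described as littermates, but which of them share a litter is not labelled, so litter was not accounted for. The p values set the diet difference against the spread between these mice, with information on that spread shared over genes. Lengths and exon overlaps come from GENCODE M21, and the printed gene ends have 1 base taken off to match it. Alternatives were RLE factors, no count filter, DESeq2 1.42.0, limma-voom (limma 3.58.1), each library left out, and the longest transcript as length. The fit was tested on simulated data. Tables used Python 3.11.15.

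The 8 genes and the gene lists were chosen with earlier results of these data known. The text names the 8 genes, up to 4 called genes by smallest p in each direction per list, 10 genes tied to the lipase or its regulators, the neighbours of Pnpla3, Pnpla5 and G0s2, and the 5 genes most like each of 4 members, or 52 genes beyond the 8, of which some are not reported here. Of these, 14 had counts that were not whole in all 6 libraries. Protein sequences were not analysed here. Intervals and floors cover counting error only, since reads carry no molecular identifiers.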

Additional observations from a re-analysis of the deposited data

How the results depend on the processing

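The counts of 4 genes higher and 0 lower among the 8 were unchanged under RLE factors, no count filter, DESeq2, limma-voom and each library left out. Since the 8 genes were chosen with this contrast in these same libraries known, that gives no independent support. With a library left out, the count filter was applied anew to the remaining libraries, so the tested genes were not exactly the 14896 of the main fit. Over all genes tested, those higher then ranged from 207 to 527 and those lower from 154 to 553. Genes higher ranged from 4 to 7 among lipase partners, 0 to 3 among other hydrolases (1 by limma-voom), 10 to 18 among SREBP-1c, ChREBP and LXR targets, 3 to 10 among PPAR and FoxO1 targets and 0 to 2 among lysophospholipid genes. Genes lower ranged from 3 to 4 among other hydrolases, 0 to 1 among PPAR and FoxO1 targets and 1 to 2 among lysophospholipid genes. Among the neighbours 1 to 3 were higher and 0 to 1 lower. The log2 fold change of Pnpla3 ranged from 3.603 to 4.725 and that of Pnpla5 from 7.08 to 9.49, with 6.82 for Pnpla5 by limma-voom. With the longest transcript as the length, the HFHC level per kilobase was 14.9 CPM for Pnpla2, 4.19 for Pnpla6, 36.1 for Pnpla7 and 10.1 for Abhd5, since these lengths are shorter. Apart from that construction, the cause of these shifts was not tested. Of 38 named genes with a call, 25 kept it in each alternative. No paired analysis was possible because the replicate numbers of the diets (1 to 3 and 7 to 9) are not shared. Depth limits Pnpla5 and Pnpla3 in Chow, with 1 and 22 counts.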
